A study of Mus musculus with 2 samples.

Results

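Rb1, Rbl1, Rbl2, Zfp423, Twist1, Tle3, Nrip1, Ctbp1 and Ctbp2 are 9 genes grouped here as repressors of the brown fat programme. Their binding by lysine-specific demethylase 1 (LSD1) was examined in mouse brown adipocytes. These 9 of 21853 protein-coding genes were chosen by name for their reported roles and not by their peaks, although earlier results of these data were known. Each was described by every LSD1 peak no more than 1 kb from a protein-coding transcript start or lying between 10 kb upstream and the gene end, which gave 52 of the 59175 peaks in the list. The study was a chromatin immunoprecipitation and sequencing experiment in primary brown adipocytes, the fat cells that produce heat. It comprised 2 libraries, an LSD1 immunoprecipitate made with a homemade antibody and an input library made without antibody, both labelled as genotype control. Cells for both came from C57BL/6 N mice, were used at passages 2 to 3, grown in 20% serum on collagen and differentiated for 10 days. The adipogenic mixture held insulin (850 nM), T3 (1 nM), indomethacin (125 nM), rosiglitazone and dexamethasone (1 µM each) and isobutylmethylxanthine (500 µM). The labels give no animal age.

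The processed data are a list of LSD1 peaks, each with a position and a score. The score is the authors' own value, and no source used here states its scale. With 1 immunoprecipitate there is no replicate error, no test was made, and scores that lie close together cannot be ordered. No read counts are in the list, so the depth is unknown. Scores over the whole list had a median of 111, and the top decile began at 391. A peak list measures neither expression nor the effect of binding. The labelled cell type and the repressor role of each gene could therefore not be checked in these data.

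LSD1 removes methyl groups from histone lysines and acts in complexes with CoREST proteins and histone deacetylases, in which CtBP proteins can also be found. Brown adipocytes are set apart from white ones by factors such as PRDM16, EBF2 and PGC-1α, which switch on heat-producing and mitochondrial genes. The proteins examined here are grouped as acting against that programme, at several levels. Pocket proteins of the retinoblastoma family restrain E2F factors and cell division, and ZFP423 and TWIST1 meet EBF2 and PGC-1α on DNA. TLE3, RIP140 (the product of Nrip1) and the CtBP proteins are corepressors that other factors bring to genes. PRDM16 is itself counted here among the CtBP partners, so the CtBP proteins need not only oppose the programme.

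All 9 genes carried an LSD1 peak over a promoter, that is, a peak overlapping the 1 kb on either side of a protein-coding start. Among all protein-coding genes 55.8% did so. All 9 promoters are rich in CpG, with an observed over expected CpG ratio of 0.816 to 1.06 in 1 kb around the most CpG-rich coding start of each gene, against a median of 0.615 over all genes. That places them in the 3 highest deciles of CpG content, where 88.0%, 90.0% and 93.4% of genes had a promoter peak. At genes of that CpG content a promoter peak is therefore the common state. Nearby peaks, counted from 10 kb upstream to the gene end, were also found at all 9, against 69.8% of protein-coding genes.

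The 9 genes differed in how high and how wide their highest promoter peak was, with widths from 587 bp at Rbl1 to 2602 bp at Zfp423. The highest promoter score was 1423 at Rb1, 1272 at Zfp423, 640 at Ctbp1, 616 at Tle3, 436 at Nrip1, 358 at Ctbp2, 266 at Twist1, 239 at Rbl2 and 89.5 at Rbl1. Their median was 436, against 315 (quartiles 156 and 570) for the 12199 protein-coding genes with a promoter peak. In the 3 highest CpG deciles, where all 9 lie, the medians of bound genes were 366, 384 and 438. Rb1 stood at rank 390 of the 12199 genes, Zfp423 at 550, Ctbp1 at 2500 and Tle3 at 2684. Rbl1 stood at rank 11172, with 8.40% of bound genes below it. A promoter peak in the top decile of the list was present at 5 of the 9 genes (Rb1, Zfp423, Ctbp1, Tle3 and Nrip1), against 22.8% of all protein-coding genes and 41.5%, 44.4% and 52.0% of genes in the 3 highest CpG deciles.

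**Figure D1:**
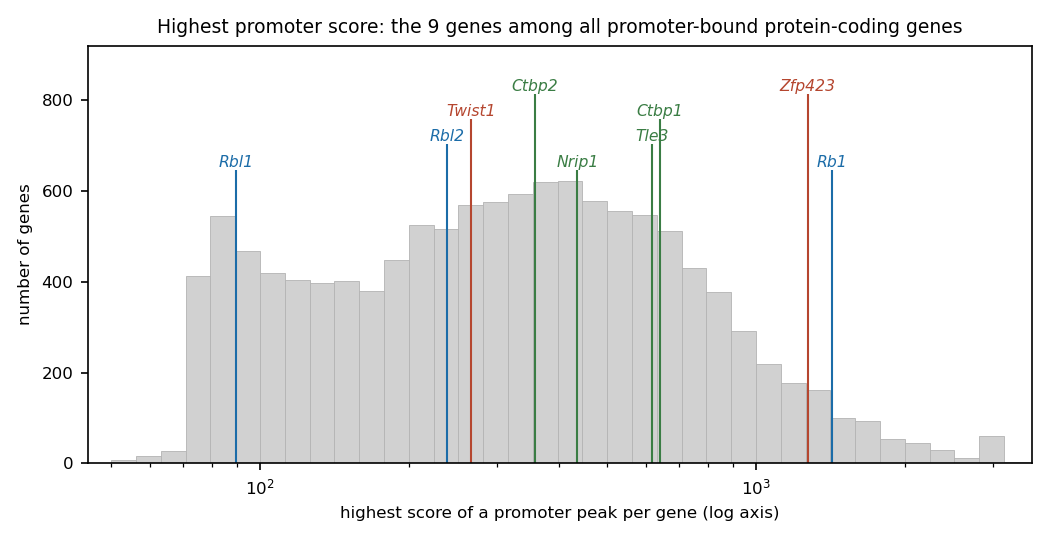
Histogram of the highest promoter score of each of the 12199 promoter-bound protein-coding genes (horizontal log axis, score; vertical axis, number of genes), with a line for each of the 9 genes in blue (pocket proteins), red (DNA-binding factors) or green (corepressors). Rb1 and Zfp423 lie in the upper tail at 1423 and 1272, and Rbl1 lies at the lower end at 89.5.

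Set against genes of the same CpG decile, Rb1 and Zfp423 again stood high and Rbl1 low. The Rb1 score exceeded 94.1% of the bound genes in its decile and that of Zfp423 94.6%. Ctbp1 exceeded 69.7%, Tle3 71.9%, Nrip1 49.7% and Ctbp2 40.9%. Twist1 exceeded 35.0%, Rbl2 30.7% and Rbl1 5.49% of the bound genes of like CpG content. The standing of Zfp423 rests on a peak with its midpoint over 1 kb from any start. With the midpoint required inside the promoter its highest score was 136, below the lower quartile of 197 in its CpG decile as counted by overlap.

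**Figure D2:**
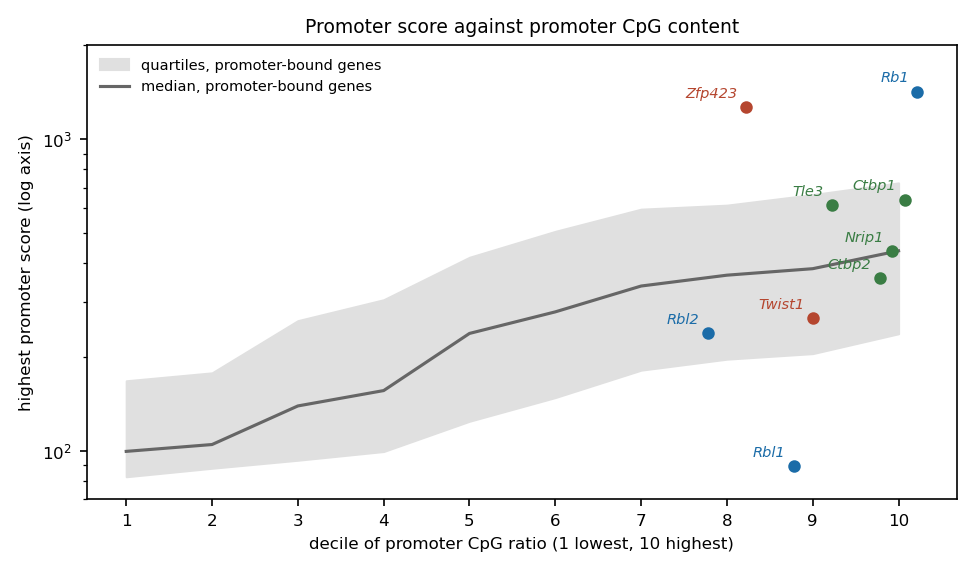
Highest promoter score (vertical log axis) of the 9 genes by decile of promoter CpG ratio (horizontal axis, points spread sideways within a decile for legibility), over the median (line) and quartiles (band) of all promoter-bound genes. The points lie in deciles 8 to 10, with Rb1 and Zfp423 above the band and Rbl1 below it.

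The pocket protein genes held both the highest and the lowest promoter score of the 9. Rb1, which encodes the retinoblastoma protein, a brake on E2F factors whose loss is known to favour brown features in fat precursors, lies on the minus strand at chr14:73183673-73325822. Its promoter peak at chr14:73324422-73326232 was 1811 bp wide, scored 1423 and covered the start, with the midpoint 495 bp downstream in intron 1. Of 196 peaks in the list within 2% of that width, 94.4% scored lower, so the peak was high for its width. The other 3 peaks in Rb1 had midpoints within the gene but in none of its exons, and scored 197, 86.7 and 80.5. The highest of them, at chr14:73234334-73235258 in intron 17, had as its nearest protein-coding start that of Lpar6, a lysophosphatidic acid receptor gene nested in Rb1, with its midpoint at -3099 bp (negative distances lie upstream). The peak at chr14:73194816-73195412, scoring 86.7, lay in the stretch that Rb1 shares with the overlapping gene Rcbtb2. Its midpoint was within the annotated extent of Rb1 but outside the only protein-coding transcript of Rb1. The peak at chr14:73266028-73266607 lay in intron 12. Only the promoter peak of Rb1 was nearer to an Rb1 start than to any other.

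Rbl1 and Rbl2 encode p107 and p130, the pocket proteins that work with the repressive E2F factors and, in resting cells, with the MuvB core. Both genes had 1 peak each, over the start. At Rbl1 (minus strand, chr2:157145893-157204534) it lay at chr2:157204294-157204880, was 587 bp wide and scored 89.5, below the list median. At Rbl2 (plus strand, chr8:91070057-91123844) it lay at chr8:91069665-91070597, was 933 bp wide, scored 239 and covered all 3 annotated coding starts. The median number of nearby peaks was 0 in the shortest and 5 in the longest decile of gene length, and 88.4% of genes in the length decile of Rbl1 and 83.1% of those in that of Rbl2 had at least 1. The promoter CpG ratios of Rb1, Rbl1 and Rbl2 were 1.06, 0.881 and 0.816, so their order did not follow the order of their scores.

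The 300 bases before the outermost annotated start of Rbl1 and Rbl2, all inside the peak, are shown because the lower-scoring gene has the richer CpG content. All sequences are mm10 (GRCm38) and printed 5′ to 3′ on the coding strand, with capitals for exact matches to a searched motif.
Rbl1 chr2:157204535-157204834, minus strand: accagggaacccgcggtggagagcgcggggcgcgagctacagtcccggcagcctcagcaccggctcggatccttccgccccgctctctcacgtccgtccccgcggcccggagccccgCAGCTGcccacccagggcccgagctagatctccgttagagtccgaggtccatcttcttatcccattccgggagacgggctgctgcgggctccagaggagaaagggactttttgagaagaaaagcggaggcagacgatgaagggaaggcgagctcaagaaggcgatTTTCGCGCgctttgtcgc
Rbl2 chr8:91069757-91070056, plus strand: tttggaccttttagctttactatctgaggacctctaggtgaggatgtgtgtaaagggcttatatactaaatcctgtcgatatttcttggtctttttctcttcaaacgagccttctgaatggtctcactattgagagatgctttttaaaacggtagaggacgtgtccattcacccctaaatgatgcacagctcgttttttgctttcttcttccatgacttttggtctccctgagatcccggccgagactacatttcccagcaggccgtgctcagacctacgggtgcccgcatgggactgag
The Rbl1 stretch had 65.3% GC and 31 CpG dinucleotides, and it held the E2F word TTTCGCGC beginning 18 bases before that start. E2F words (TTTCCCGC, TTTGGCGC, TTTCGCGC or TTTGGCGG on either strand) were present in the same 300 bases of 2.65% of all protein-coding genes. The stretch also held the E-box CAGCTG, as did 14.2% of genes. The Rbl2 stretch had 46.3% GC and 10 CpG dinucleotides and no searched word.

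Zfp423 had the most peaks of the 9 genes, 18 over a gene of 298 kb. It encodes a zinc finger protein that keeps white adipocytes white by blocking EBF2, and lies on the minus strand at chr8:87661810-87959595. Of the genes in its length decile, that of the longest genes, 5.68% had as many peaks or more, and the median there was 5. The highest of its peaks, at chr8:87960089-87962690, was 2602 bp wide and scored 1272. Of the 48 peaks of like width, 52.1% scored lower. It did not cover the start. Its near edge lay 494 bp upstream of the outermost coding start and its midpoint at -1794 bp, so when the midpoint had to lie within 1 kb of a start the highest promoter score of Zfp423 was 136. The promoter peak with that score, at chr8:87958547-87959386, lay 209 bp downstream of the same start, so the start itself fell in the gap between the peaks.

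Inside Zfp423, intronic peaks ranged from 75.5 to 745. The highest of them, at chr8:87718545-87720159 in intron 5, was 1615 bp wide, and its midpoint lay 84471 bp from the nearest protein-coding start. A second peak in intron 5, at chr8:87701689-87702320, was narrow for its score. It was 632 bp wide and scored 284, above 99.5% of the 3424 peaks within 2% of that width, whose median was 106. Further intronic peaks above the list median scored 258, 225, 195, 181 and 118. A peak over the gene end, at chr8:87661260-87661820, scored 97.3. A peak over a coding exon, at chr8:87781342-87781958, scored 107. Of the 5 annotated coding starts of Zfp423, the outermost and the start at 87895735 had a peak within 1 kb, the latter with a score of 75.8, and the other 3 had none.

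The centres of both high peaks of Zfp423 are shown because these are its highest scores and neither peak covers a start.
Zfp423 upstream chr8:87961239-87961538, minus strand: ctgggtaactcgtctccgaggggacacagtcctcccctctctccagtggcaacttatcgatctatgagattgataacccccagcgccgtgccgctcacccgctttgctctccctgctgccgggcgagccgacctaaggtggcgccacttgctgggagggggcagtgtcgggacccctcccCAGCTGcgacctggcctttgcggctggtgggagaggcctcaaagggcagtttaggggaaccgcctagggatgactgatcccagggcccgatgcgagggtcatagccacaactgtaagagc
Zfp423 intron 5 chr8:87719202-87719501, minus strand: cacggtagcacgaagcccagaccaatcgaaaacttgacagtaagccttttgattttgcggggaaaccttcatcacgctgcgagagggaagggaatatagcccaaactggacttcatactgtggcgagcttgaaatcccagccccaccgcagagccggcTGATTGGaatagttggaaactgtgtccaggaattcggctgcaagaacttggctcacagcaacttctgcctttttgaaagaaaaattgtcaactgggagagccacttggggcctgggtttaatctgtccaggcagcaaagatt
The upstream centre had 63.3% GC, a CpG ratio of 0.565 and 1 CAGCTG E-box, a word found in 16.9% of promoter peaks over the same length. The intronic centre had a CpG ratio of 0.535, 10 CpG dinucleotides and 1 match to the NFY word CCAATCA, which reads TGATTGG on the strand printed. That word was found in 3.32% of peaks away from promoters.

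**Figure D3:**
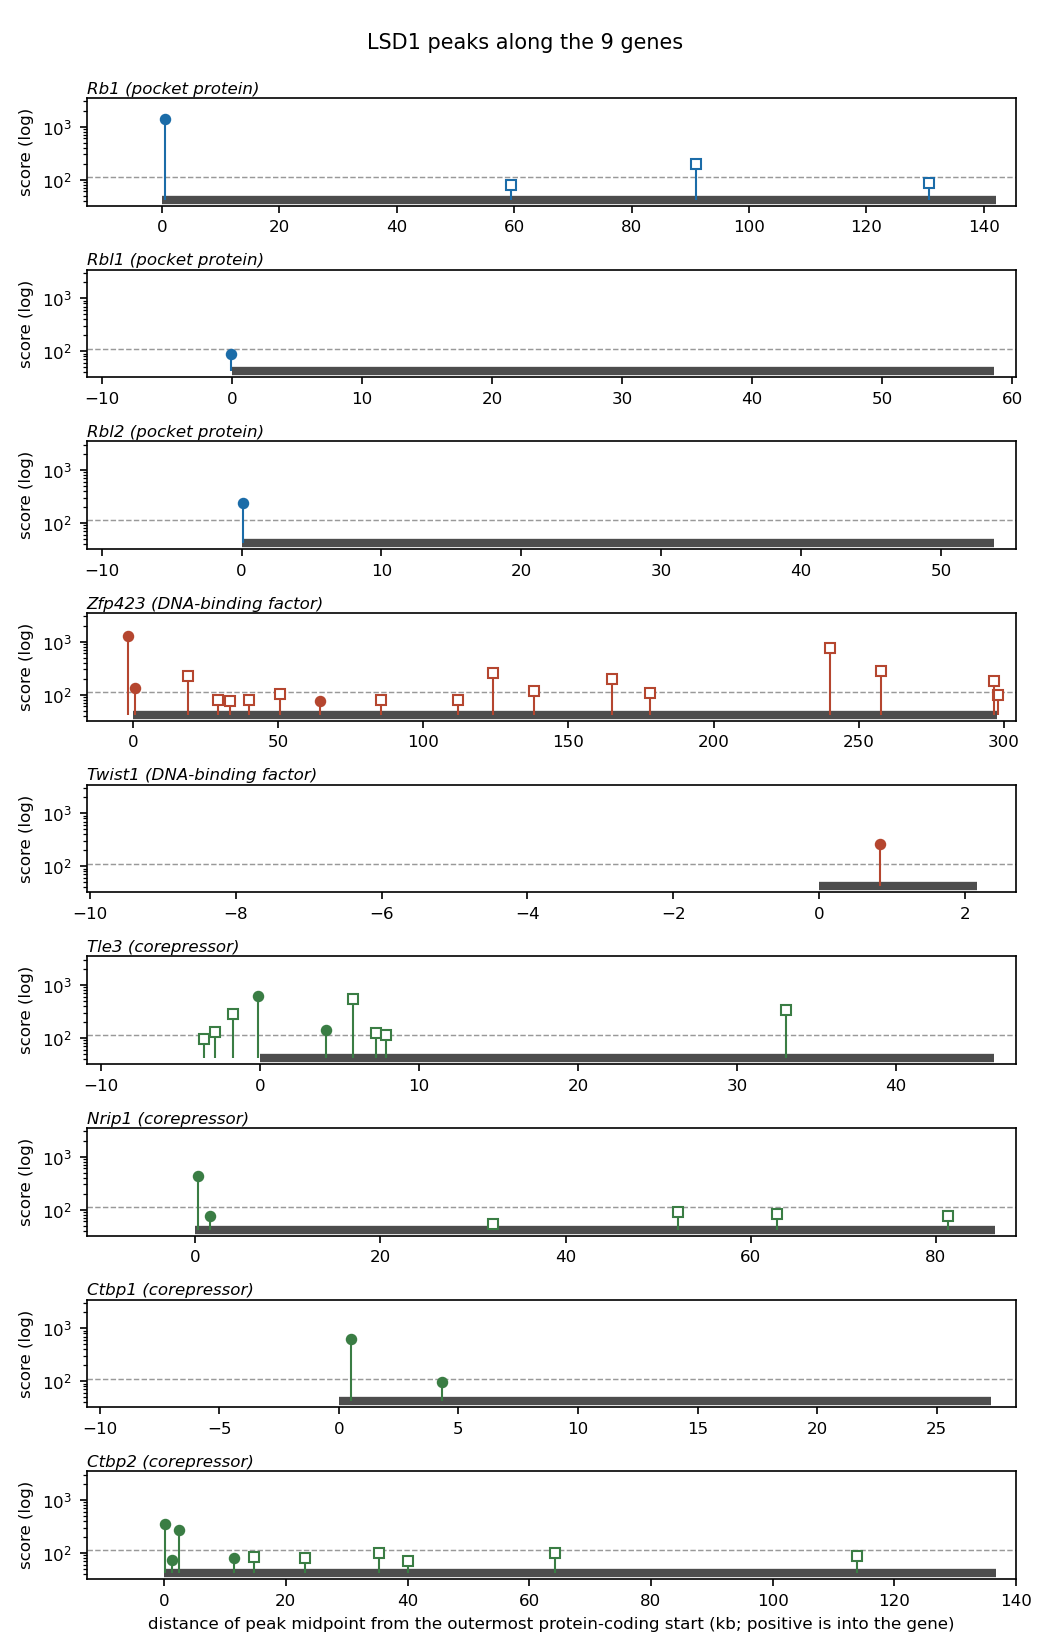
Position and score of all 52 peaks, 1 panel per gene, with the distance of the peak midpoint from the outermost coding start in kb on the horizontal axis and the score on a vertical log axis. Filled circles are promoter peaks, open squares other peaks, the grey bar the gene and the dashed line the list median of 111. Zfp423 carries 18 peaks along its whole length, Tle3 a run around its start, and Rbl1, Rbl2 and Twist1 1 peak each.

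Twist1, a basic helix-loop-helix factor that binds PGC-1α and damps its target genes in brown fat, is a short gene of 2159 bp (plus strand, chr12:33957671-33959829). Its only peak, at chr12:33958022-33958989, was 968 bp wide, scored 266 and began 351 bp downstream of the start, with its midpoint in the coding exon. No peak lay in the 10 kb upstream. In this length decile 40.0% of genes had any nearby peak. Twist1 and Zfp423 were the 2 genes of the 9 whose highest promoter peak covered no coding start, against 18.1% of all promoter-bound genes. The first 300 bases of the peak, all coding sequence, are shown for their base composition.
Twist1 chr12:33958022-33958321, plus strand: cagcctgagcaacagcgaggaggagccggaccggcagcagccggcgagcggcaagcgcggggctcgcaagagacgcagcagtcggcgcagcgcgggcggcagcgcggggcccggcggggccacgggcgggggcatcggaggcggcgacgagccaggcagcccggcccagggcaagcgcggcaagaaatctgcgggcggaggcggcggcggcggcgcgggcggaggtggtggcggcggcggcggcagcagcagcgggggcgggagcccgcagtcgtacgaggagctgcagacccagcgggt
They had 79.3% GC, 47 CpG dinucleotides and a CpG ratio of 1.05, and no searched word.

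Tle3 was the gene of the 9 with the largest share of its window inside peaks. TLE3 is a Groucho-type corepressor that competes with PRDM16 at PPARγ and so favours lipid storage over heat genes. In the gene (plus strand, chr9:61372366-61418497, 46.1 kb) and the 10 kb before it lay 9 peaks, and 2.97% of genes in its length decile had as many or more, with a median of 2. Peaks took up 15.7% of the window, compared with 0.855 to 7.96% at the other 8 genes. A group of 8 of the peaks formed a run of 12.1 kb, from chr9:61368464 to 61380591, of which 63.7% was inside peaks and where the smallest gap was 34 bp.

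In order along that run the scores were 93.8, 128 and 288 upstream, 616 at the promoter, then 140, 548, 126 and 113 in intron 4. The promoter peak, at chr9:61371286-61373188, was 1903 bp wide and covered 3 of the 15 coding starts. It also covered the start of Gm10655, a long intergenic RNA gene annotated on the opposite strand. The intron 4 peak scoring 140 counted as a promoter peak through a non-basic transcript start 625 bp away. The one scoring 548, at chr9:61377440-61378997, was 1558 bp wide, with its midpoint 2689 bp from the nearest coding start. The remaining peak, at chr9:61404900-61405981 and scoring 342, lay 33074 bp into the gene over an exon of a non-coding Tle3 transcript. Of the 9 Tle3 peaks 8 scored above the list median, more than at any gene of the set but Zfp423, which had 9 of 18.

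The promoter and the intron 4 peak of Tle3 differ in CpG content, as these stretches show.
Tle3 chr9:61372066-61372365, plus strand, before the start: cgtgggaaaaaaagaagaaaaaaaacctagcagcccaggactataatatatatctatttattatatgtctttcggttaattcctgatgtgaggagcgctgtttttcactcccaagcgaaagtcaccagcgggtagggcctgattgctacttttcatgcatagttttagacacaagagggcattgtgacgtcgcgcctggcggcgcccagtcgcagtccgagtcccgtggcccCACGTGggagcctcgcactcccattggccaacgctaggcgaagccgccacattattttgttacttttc
Tle3 chr9:61378068-61378367, plus strand, intron 4: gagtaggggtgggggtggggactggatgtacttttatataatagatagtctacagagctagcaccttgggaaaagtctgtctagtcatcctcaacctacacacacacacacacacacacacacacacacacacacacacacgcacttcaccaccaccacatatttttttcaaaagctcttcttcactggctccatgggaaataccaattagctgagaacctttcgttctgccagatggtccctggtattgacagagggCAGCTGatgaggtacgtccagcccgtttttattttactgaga
The stretch before the start held 18 CpG dinucleotides (ratio 0.973) and the E-box CACGTG beginning 68 bases before the start, a word that 7.22% of protein-coding genes hold in these 300 bases. The intronic stretch held 4 CpG dinucleotides (ratio 0.249) and 1 CAGCTG E-box, present in 19.1% of peaks away from promoters.

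Nrip1 encodes RIP140, a corepressor of nuclear receptors that silences heat and oxidative genes in fat. The gene (minus strand, chr16:76287400-76373827) had 6 peaks, and only the one over its start was above the list median. That peak, at chr16:76372841-76374194, was 1354 bp wide, scored 436 and covered 3 of the 4 coding starts. A second promoter peak at chr16:76371957-76372549 scored 77.1, intronic peaks scored 88.9, 81.1 and 53.4, and a peak over the coding exon, at chr16:76292227-76292825, scored 75.5. The intronic peak of 53.4 was among the lowest of the whole list, at its percentile 0.159. The remaining coding start, at 76323658, had no peak within 1 kb.

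The 300 bases before the Nrip1 start lie wholly in the peak yet are poor in CpG.
Nrip1 chr16:76373828-76374127, minus strand: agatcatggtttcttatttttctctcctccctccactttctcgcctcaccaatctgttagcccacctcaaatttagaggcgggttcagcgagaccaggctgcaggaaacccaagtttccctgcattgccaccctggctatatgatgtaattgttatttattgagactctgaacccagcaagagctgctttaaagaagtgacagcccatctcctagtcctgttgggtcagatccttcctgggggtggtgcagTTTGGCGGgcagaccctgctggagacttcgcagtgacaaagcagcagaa
They held 5 CpG dinucleotides (ratio 0.265, against a median of 0.467 over all genes) and the E2F word TTTGGCGG beginning 49 bases before the start. In 1 kb around the downstream start at 76373049 the CpG ratio was 0.933, and around the outermost start at 76373827 it was 0.526. The same peak covered both starts.

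Ctbp1 and Ctbp2 encode closely related corepressors that bind NADH and recruit histone-modifying enzymes, LSD1 among them. Ctbp1 (minus strand, chr5:33247723-33274994) had 2 peaks. The peak at chr5:33273757-33275179 was 1423 bp wide, scored 640 and covered 6 of the 7 coding starts. The other, at chr5:33270377-33270973 and scoring 95.6, counted as a promoter peak through a non-basic transcript start 741 bp away. No other peak lay in the gene or the 10 kb before it.

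Ctbp2 (minus strand, chr7:132987563-133124354) had 10 peaks, with the higher scores near its outer starts. The outermost, at chr7:133123550-133124837, was 1288 bp wide and scored 358. Next came a peak at chr7:133122692-133123280 scoring 73.3, and one at chr7:133121437-133122261 scoring 270, above 88.9% of the 1358 peaks of like width. Each of these 3 peaks covered at least 1 of the 12 coding starts. The last promoter peak, at chr7:133112655-133113232, scored 81.1, and the 6 peaks farther in scored 71.4 to 102. At least 3 promoter peaks were found at Ctbp2 and Zfp423, 2 of the 9 genes, against 2.48% of all protein-coding genes. The coding starts of these genes spanned 109106 and 155772 bp, more than at the other 7 genes.

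The internal coding starts of Ctbp2 at 133015248 and 133023757 had no peak within 1 kb. The nearest peak to the first of them, at chr7:133010246-133010839, scored 87.5 and lay 4409 bp away. An annotated transcript of Fgfr2, a fibroblast growth factor receptor gene, starts within 1 kb of the 2 outer Ctbp2 peaks. The midpoints of 9 of the 10 Ctbp2 peaks, all but the outermost, lay within the annotated extent of Fgfr2, which overlaps Ctbp2 on the same strand. None of the 10 peaks can therefore be given to 1 gene by position alone, although the nearest protein-coding start was that of Ctbp2 for each.

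The sequence before the start of each CtBP gene is shown for comparison.
Ctbp1 chr5:33274995-33275294, minus strand: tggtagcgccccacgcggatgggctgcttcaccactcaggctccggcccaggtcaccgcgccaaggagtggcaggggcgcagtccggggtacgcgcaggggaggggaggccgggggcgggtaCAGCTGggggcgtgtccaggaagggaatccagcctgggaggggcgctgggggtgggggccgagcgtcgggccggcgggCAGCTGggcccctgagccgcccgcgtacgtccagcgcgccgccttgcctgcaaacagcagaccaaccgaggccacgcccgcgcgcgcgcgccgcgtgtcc
Ctbp2 chr7:133124355-133124654, minus strand: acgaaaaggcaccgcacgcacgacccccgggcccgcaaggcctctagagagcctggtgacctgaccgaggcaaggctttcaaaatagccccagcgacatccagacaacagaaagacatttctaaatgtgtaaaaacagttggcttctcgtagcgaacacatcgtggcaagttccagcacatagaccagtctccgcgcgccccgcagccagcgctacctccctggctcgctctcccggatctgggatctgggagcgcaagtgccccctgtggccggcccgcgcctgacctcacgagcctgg
The Ctbp1 stretch, of which 185 bases lie in the peak, had 76.3% GC, 36 CpG dinucleotides and 2 CAGCTG E-boxes. The Ctbp2 stretch lay wholly in the peak and had 61.3% GC, 23 CpG dinucleotides and no searched word. In the 300 bp around the peak midpoint, Ctbp1 held the NRF1 palindrome, found in 1.11% of promoter peaks, and Ctbp2 held 2 CACGTG E-boxes, found in 7.02%.

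Across the set, 17 peaks were at promoters and 35 elsewhere, 28 of the latter in introns. Promoter peaks had a median score of 239 and a median width of 840 bp, close to the 231 and 912 bp of all 14423 promoter peaks of the list. The other peaks had a median score of 99.2 and a median width of 599 bp, close to the 102 and 602 bp of the 44752 other peaks. Of the 35, 2 were in the top decile, the intron 5 peak of Zfp423 and the intron 4 peak of Tle3, or 5.71% against 3.15% of all peaks away from promoters. Their CpG ratios were 0.444 and 0.210, against a median of 0.788 over the 17 promoter peaks. The 1408 peaks of the list that were in the top decile and away from promoters had a median ratio of 0.287. Just inside the 1 kb limit lay the Ctbp2 peak scoring 81.1, at 864 bp from a start, and just outside it the Tle3 peak scoring 288, at 1217 bp.

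**Figure D4:**
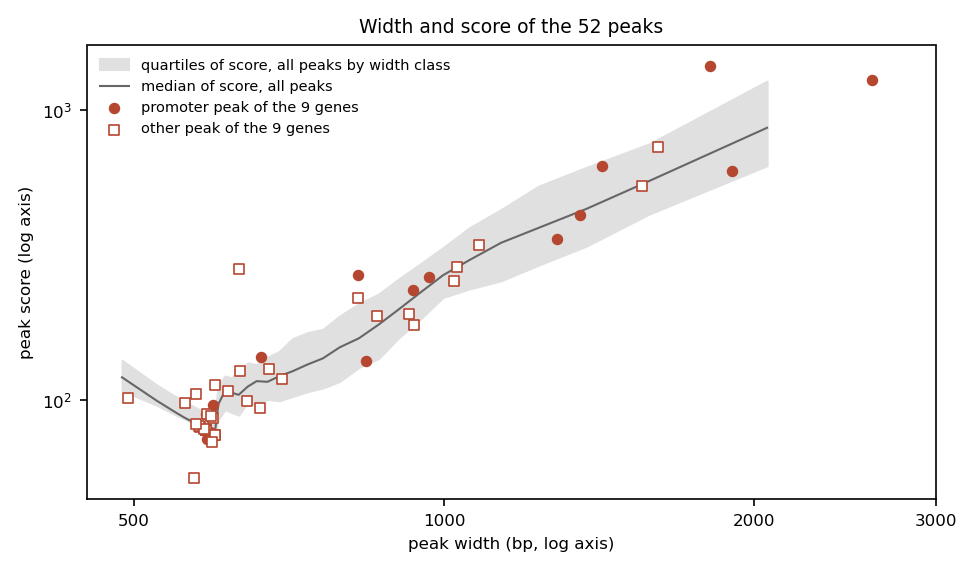
Width (horizontal log axis, bp) and score (vertical log axis) of the 52 peaks, as filled circles at promoters and open squares elsewhere, over the median (line) and quartiles (band) of score in width classes of all peaks. The median score of the list falls from 119 in the narrowest width class (487 bp) to 75.8 at 599 bp and is higher in the widest classes, reaching 871, and the Rb1 promoter peak (1811 bp, 1423) and the narrow Zfp423 peak (632 bp, 284) lie above the band.

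Of the 49 distinct coding starts of the 9 genes, 21 lay inside a peak, 42 had a peak within 1 kb and 7 had none. The 7 unbound starts belonged to Zfp423 (3), Ctbp2 (2), Tle3 (1) and Nrip1 (1). Each of these genes had another start that was bound. Around the unbound starts the CpG ratio was 0.177 to 0.549, whereas the bound outermost starts of the same 4 genes had ratios of 0.526 to 0.829. Low CpG content did not always go with an unbound start. The bound internal starts at 61375529 of Tle3 and 133111791 of Ctbp2 had ratios of 0.100 and 0.115. Each had a peak within 1 kb, with scores of 140 and 81.1. So did the start at 87895735 of Zfp423 (ratio 0.195, score 75.8) and that at 33269636 of Ctbp1 (ratio 0.308, score 95.6).

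Exact words for 12 motifs were searched in the 300 bp around the midpoint of the highest promoter peak of each gene, on both strands. E2F words were present at Rbl1 and Nrip1, against 3.18% of promoter peaks, CACGTG at Tle3 and Ctbp2 (7.02%), CAGCTG at Rbl1, Rbl2 and Zfp423 (16.9%) and the NRF1 word at Ctbp1 (1.11%). No match was found in any of the 9 windows for CCGGAAGT (ETS), TGACGTCA (CRE), GGGGCGGGG (SP/KLF), CCAATCA (NFY), TGANTCA (AP1), TTGCGCAA (C/EBP), ACANNNTGT (half-sites of the glucocorticoid receptor) or the YY1 word. The shares of promoter peaks with these words ranged from 0.180% (C/EBP) to 11.7% (SP/KLF). Rb1 and Twist1 held no searched word in this window. An exact word is a strict criterion, and a match is a description of the letters and not a site.

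Partner and pathway genes of the 9, in 8 lists of 100 distinct genes, were mostly promoter-bound too. A promoter peak was present at 90 of them, or 90.0%, with a median score of 354. The mean bound share of their CpG deciles was 82.7%. Of the E2F, DP and MuvB genes, through which pocket proteins act, 14 of 16 were bound, against a mean share of 87.3% in their CpG deciles. The genes of the repressive factors E2f5 (988) and E2f8 (873) and the MuvB subunit gene Lin37 (858) were highest, and E2f4, the main partner of p130, and Tfdp2, a dimerisation partner, had no promoter peak. All 16 cyclin, kinase and inhibitor genes upstream of the pocket proteins were bound, against a mean share of 85.6% in their CpG deciles. The inhibitors Cdkn1a (986) and Cdkn2c (864) and the kinase Cdk6 (731) were highest.

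In the Groucho family, corepressors brought to genes by DNA-binding factors, Tle4 (2313) and Tle1 (1326) scored above Tle3 itself (616), Tle6 scored 97.0 and Aes, a short family member, had no promoter peak. All 16 CtBP partner genes were bound, with Ehmt1, a histone H3 lysine methyltransferase (1187), Rreb1, a zinc finger factor (770), and Mecom, a relative of Prdm16 (624), highest. Their median was 222. Kdm1a, the gene of LSD1 itself, scored 87.5 and was singled out after its value was seen. All 9 relatives and partners of ZFP423 were bound, among them Ebf3 (912), Smad5 (885) and Ebf4 (872), and all 12 of TWIST1, led by Id2 (767), Id3 (731) and Tcf3 (592). Of the nuclear receptors that RIP140 can bind, 11 of 13 were bound. Nr3c1, the glucocorticoid receptor gene (1060), Thrb (564) and Esrra (558) were highest, and Esr1 and Ppard had no promoter peak. Of 13 other genes reported to restrain the heat programme 8 were bound, led by Tgfb1 (1089), Foxp1 (603) and Smad3 (600), while Hoxc8 and Hoxc10 were not. The mean bound share of the CpG deciles of that list was 68.8%, the lowest of the 8 lists. That share was 78.5% for the Groucho family, 90.0% for the CtBP partners and 88.5% for the relatives and partners of ZFP423. For those of TWIST1 it was 79.7%, and for the receptors that RIP140 can bind 78.9%.

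**Figure D5:**
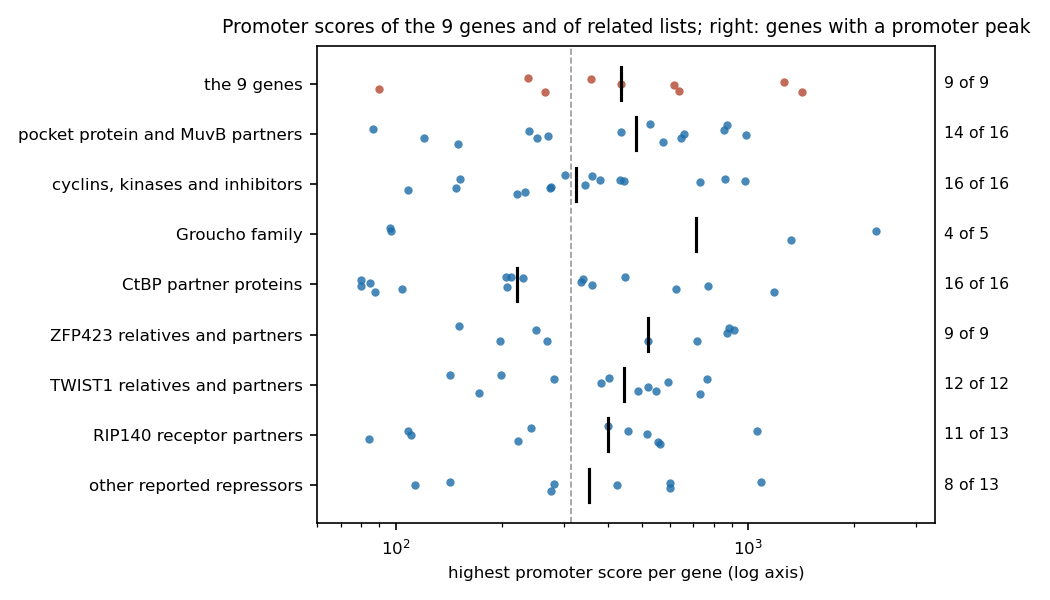
Highest promoter score per gene (horizontal log axis) for the 9 genes in red and for 8 related lists in blue, with a black bar at each median, the dashed line at the median of 315 for all promoter-bound genes, and the number of genes with a promoter peak on the right. The 9 genes span 89.5 to 1423, and several related lists span a similar range.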

How the data were processed

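DNA of 1 LSD1 immunoprecipitate and 1 input was sequenced, and Bowtie2 mapped the reads to mm10, per the labels' protocols. The submitters' processing notes also name MACS 1.41. How reads were filtered, where the peak threshold lay and whether the input served as control are not given in the sources used here. Per peak, the deposited score is the authors' value, of unstated scale. Positions count the first base as 1.

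Starts were taken from GENCODE M21 and sequence from RefSeq's GRCm38.p6, which has the chromosomes of mm10. Promoters were the 1 kb on either side of each protein-coding transcript start, and an overlap of 1 bp counted. The top decile of scores was set over the whole list. The genes and lists were chosen with earlier results of these data known. All peaks of the 9 genes are covered. Related lists are named by their 3 highest promoter scores and, in list order, their first 2 members lacking a promoter peak. Introns are numbered on the longest basic coding transcript. Sequences are printed for 8 genes present in RefSeq's promoter table (GRCm38.p6), not for Rb1, and without untranslated bases. Overlap and word searches were tested on simulated data (Python 3.11.15, pandas 2.3.3). Alternatives changed promoter and window size, overlap rule, score limit, start set and motif window.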

Additional observations from a re-analysis of the deposited data

How the results depend on the processing

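All 9 genes kept a promoter peak with promoters of 500 bp or 2.5 kb and with the midpoint required inside. They also did with the outermost start alone and with starts of basic transcripts alone. The share of all protein-coding genes was 52.6 to 59.1% in these settings. With peaks at or above the list median 8 did, Rbl1 being lost. With those of the top decile 5 did (promoter and nearby peaks alike). Among all protein-coding genes 47.3% had a promoter peak and 58.9% a nearby peak at or above the list median. In the top decile these shares were 22.8% and 27.4%. The median of the highest promoter scores was 358 with the midpoint inside, 526 above the list median and 640 in the top decile, where the fewer genes left set it. The highest promoter score of Zfp423 became 136 with the midpoint inside. The 52 peaks fell to 25 above the list median and to 7 in the top decile. A promoter peak in the top decile was present at 41 of the 100 related genes, against 22.8% of all protein-coding genes. Most of the related genes lie in CpG deciles 5 to 10, however. There the share over all genes rose from 18.4% in decile 5 to 52.0% in decile 10, so the count cannot be set apart from CpG content. Gene and motif pairs with a match numbered 8 in 300 bp, 6 in 200 bp, 16 in whole peaks and 5 in the 300 bases before the start, a window added after the data were seen. No paired analysis was possible because there is 1 library per group. With no replicate and no counts, the precision of a score is unknown.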

Other observations

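Low-scoring peaks of these genes repeat the same values. Of the 52 peaks, 38 shared both width and score with at least 1 other peak in the list, and 76.4% of all peaks did. In Zfp423, 3 intronic peaks had a width of 588 bp and a score of 78.38, a pair of values held by 263 peaks of the list. The most frequent pair, 599 bp and 75.52, occurred 471 times and included 1 peak of Zfp423 and 1 of Nrip1. Peaks with such values cannot be ranked against each other.

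Some genes of the related lists had more peaks in their windows than any of the 9. Foxp1, a forkhead repressor gene, had 42, Ebf1 22, Tcf4 21 and Rara 20, and these genes were singled out after their values were seen. Rara spans 47125 bp, close to the 46132 bp of Tle3 with its 9 peaks.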
